A study of Mus musculus with 56 samples.

Results

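The liver response to a higher dose of zalfermin was examined in 16 of the 56 mice of the series, the 8 labelled as dosed with high-dose zalfermin and the 8 labelled as dosed with low-dose zalfermin. All 16 were male C57BL/6J mice that arrived at 5 to 6 weeks of age and were fed the AMLN diet, rich in trans-fat, fructose and cholesterol, for 36 weeks before dosing to give diet-induced obesity (DIO) and metabolic dysfunction-associated steatohepatitis (MASH). Each had a liver biopsy 3 weeks before the first dose, and only mice with steatosis and fibrosis in that biopsy were dosed. Zalfermin was then injected under the skin once a day for 8 weeks, at 0.05 mg/kg (low dose) or at 0.2 mg/kg (high dose), so that the doses differed 4-fold. RNA of the whole terminal liver sample was sequenced. Of the other groups, 8 DIO-MASH vehicle mice (the same diet and vehicle), 8 chow vehicle mice, and 8 mice each on semaglutide at 3 or 120 µg/kg with the AMLN diet are used for comparison. The model is a male mouse on a diet, without a genetic lesion, and the labels do not say whether the mice of a group were littermates.

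Zalfermin is a long-acting analog of fibroblast growth factor 21 (FGF21), a hormone made mostly by the liver. FGF21 signals through FGF receptors, chiefly FGFR1, and only in cells that also carry the co-receptor beta-klotho (gene Klb). The receptors activate the ERK kinase cascade, and much of the hormone's effect on the liver is thought to be relayed by the brain and by adipose tissue. The dose comparison asks which liver genes kept changing when the dose was raised, and by how much. The study reported more loss of body weight, a lower liver weight and less liver fat at the high dose than at the low dose. The part of weight loss in the gene differences between the doses was not tested here.

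The deposited table gives the number of reads on each gene. The reads on genes summed to 7779307 to 16013740 per mouse in the low-dose group and 6211126 to 17124553 in the high-dose group. Neither the sums (exact two-sided permutation test, p = 0.312, n = 8 and 8) nor the number of genes with a read (p = 0.222 by the same exact test) differed beyond the spread of the mice. All 9 hepatocyte markers were detected, with 12295989 reads on Alb (albumin) in the 16 mice together. Of the genes listed for pancreas, fat and gut, the pancreatic genes Cpa1 and Amy2a5 had 0 reads and Prss2 had 2. The adipocyte genes Adipoq, Lep, Plin1 and Retn had 12, 3, 6 and 3. The rest of that list had more, with 1676 reads on the pancreatic gene Cela1, 18538 on Fabp2, 173 on Vil1, 5228 on Ly6d and 274 on Sprr1a. Reads were scaled to normalized counts (CPM, reads per library of a common size), and log2 fold changes, standard errors (SE) and adjusted p-values are from edgeR's quasi-likelihood F test over 14105 genes. A gene counts as differentially expressed (a DEG) where its adjusted p fell under 0.05.

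Low-dose mouse 1 stood apart from its group. The mice are numbered from 1 to 8 in each group in the order of their sample labels. For 64.2% of the DEGs between the doses (167 of 260), low-dose mouse 1 lay inside the range of the high-dose mice, whereas the other 7 low-dose mice did so for 4.23% to 22.7%. Over all genes tested, the share was 77.8% for low-dose mouse 1 and 71.8% to 81.4% for the other 7. By this measure it stood apart only in the DEGs, which these same mice chose. Low-dose mouse 1 had the lowest level of its group in 125 of the 197 DEGs that were lower at the high dose, and the highest level in 40 of the 63 that were higher. Across genes, which are not independent replicates, its mean Spearman correlation was 0.978 with its own group and 0.982 with the high-dose group. The other 7 low-dose mice had 0.984 to 0.988 with their own group and 0.979 to 0.984 with the high-dose group. With the chow vehicle mice, its correlation was 0.971, and that of the other low-dose mice was 0.946 to 0.956. High-dose mice 3, 7 and 8 also correlated more with the other dose group. They had 0.9846, 0.9843 and 0.9846 with their own group and 0.9853, 0.985 and 0.9852 with the low-dose group. High-dose mice lay inside the low-dose range, which includes low-dose mouse 1, for 16.9% (mouse 6) to 45% (mouse 3) of the DEGs. Over all genes tested, they did so for 60.1% to 80.9%. The label of low-dose mouse 1 was kept, and the results are given with and without this mouse. It was picked out by its values in these same data, where it lay toward the high-dose group. Leaving it out therefore tends to widen the difference between the doses and to raise the number of DEGs. Genes called only without this mouse, here and below, are given as values and not as further support.

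**Figure D1:**
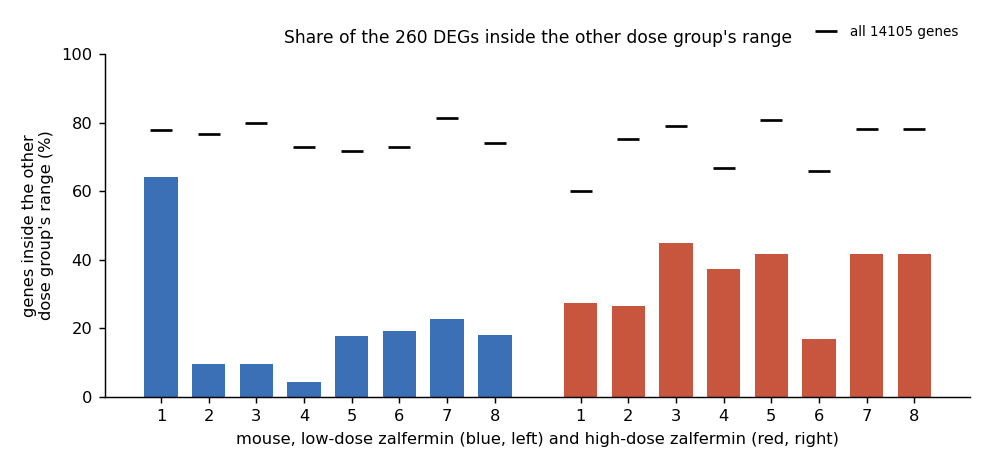
Bars give, for each zalfermin mouse (x axis), the percentage of the 260 DEGs for which its level fell inside the range of the 8 mice of the other dose (y axis), and black dashes give the same percentage for all 14105 genes. Low-dose mouse 1 reached 64.2%, the other low-dose mice 4.23% to 22.7%, and the high-dose mice 16.9% to 45%. Over all genes these shares were 77.8%, 71.8% to 81.4%, and 60.1% to 80.9%.

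Raising the dose changed 260 genes, 1.84% of those tested. Of these, 63 genes were higher (0.447%) and 197 lower (1.4%) at the high dose, with median log2 fold changes of 0.54 and -0.63, against a median of -0.01 over all genes tested. The falls were the larger changes, since 58 of the 197 lower genes and 11 of the 63 higher genes changed more than 2-fold. At an unadjusted p under 0.05 there were 1906 of the 14105 genes, a larger share than the 0.05 that chance alone gives. In 52 genes (0.369% of all tested) the mice of both groups did not overlap, 10 with all high-dose mice above (0.0709%) and 42 with all of them below the low-dose mice (0.298%). In such whole-tissue samples, fewer cells of a type and less RNA per cell cannot be told apart.

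The number of DEGs depended on single mice. Without low-dose mouse 1 there were 495 DEGs, 172 higher (1.22%) and 323 lower (2.29%). They held 257 of the 260 DEGs of all mice, and Clec3b, Hsd17b12 and Smyd5 were the 3 lost. The groups then did not overlap in 289 of the 14105 genes, a count over 1 low-dose mouse fewer and so unlike that of all 16 mice. Leaving out 1 of the other mice in turn gave 109 DEGs (without low-dose mouse 4) to 220 (without low-dose mouse 8), with 133 without low-dose mouse 2, 155 without low-dose mouse 3, 145 without high-dose mouse 2 and 135 without high-dose mouse 6. In all 16 such fits, 90 of the 260 genes remained DEGs, 11 of them higher and 79 lower. The sample numbers of the 16 mice form 3 runs of neighboring numbers, whose origin the labels do not state. Within each run alone, the median log2 difference ran from 0.44 to 0.64 over the 63 higher genes and from -0.79 to -0.51 over the 197 lower genes. These are descriptions, since the same mice chose the genes.

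**Figure D2:**
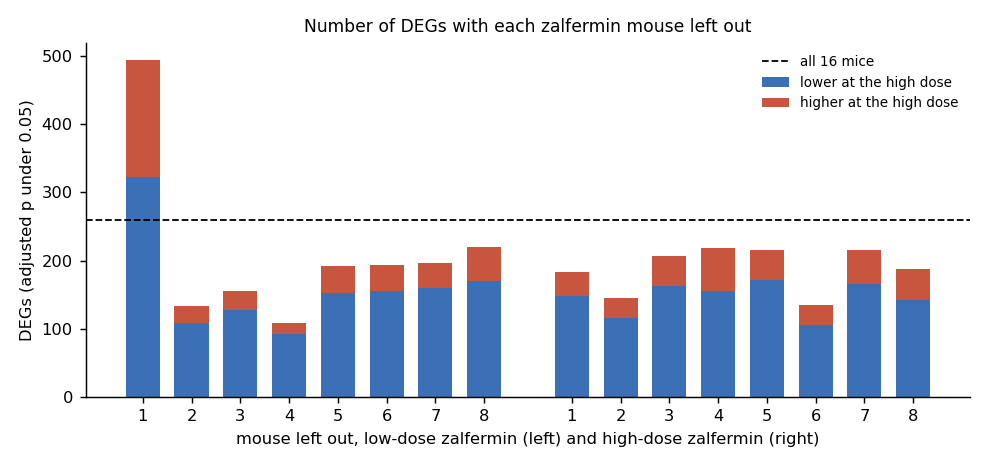
Stacked bars give the number of DEGs between the doses (y axis; blue lower, red higher at the high dose) when the mouse named on the x axis was left out, and the dashed line gives the 260 DEGs of all 16 mice. The count was 495 without low-dose mouse 1 and 109 without low-dose mouse 4.

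None of the receptor genes passed the test between the doses. Klb (chr5:65348314-65384007, GRCm38), which encodes the co-receptor, had 27.3, 32 and 46.6 CPM as the lowest, median and highest low-dose mouse, and 32, 43 and 53.7 CPM at the high dose. The groups overlapped, and the log2 fold change was 0.37 ± 0.14 (SE, adjusted p = 0.207). Against DIO-MASH vehicle, Klb had a log2 fold change of 0.41 at the low dose (adjusted p = 0.197) and rose by 0.78 at the high dose (adjusted p = 8e-05). These 2 comparisons share their mice with the dose comparison, here and below, and are given as each group's own value. Fgfr4, the main FGF receptor of hepatocytes, had a log2 fold change between the doses of 0.30 ± 0.12 (adjusted p = 0.231), with medians of 30.5 and 35.4 CPM. Fgfr1, Fgfr2 and Fgfr3 had values of -0.01 ± 0.23, 0.02 ± 0.17 and 0.27 ± 0.24, none past the test. The signs of Fgfr1 and Fgfr2 changed when single mice were left out, and that of Fgfr1 also with the runs of sample numbers in the fit. Within single runs, each of Fgfr1, Fgfr2 and Fgfr3 had the other sign in 1 run (0.27, -0.13 and -0.07). The liver's own Fgf21 had medians of 2.04 CPM at the low dose and 1.65 CPM at the high dose (-0.33 ± 0.41, adjusted p = 0.80).

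Of the 20 genes listed for the receptor complex and the feedback genes of ERK signaling, which the cascade itself induces (Dusp, Spry, Spred and Etv genes among them), 1 fell, 0 rose and the median log2 fold change was -0.01. The gene that fell was Fosl1, a Fos-family partner in the transcription factor AP-1. It rested on very few reads, 24 over the 8 low-dose mice and 1 over the 8 high-dose mice. Its level was thus 19.7-fold higher at the low dose, with an exact 95% interval of 3.21 to 809 that covers counting error only. The adjusted p was 0.0256, and the gene passed in 12 of the 16 fits with 1 mouse left out. It was lost without low-dose mouse 6 or high-dose mouse 2, 6 or 8 (adjusted p of 0.0528 to 0.0856).

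Genes of the lipid droplet fell with dose. Of the 26 tested genes of lipid droplets and fatty acid uptake, 5 were lower (Cidea, Cidec, Plin4, Plin2 and Mogat1), 0 were higher, and 20 had a negative log2 fold change, with a median of -0.24. All 5 remained DEGs in each of the 16 fits with 1 mouse left out. Cidea, which enlarges lipid droplets by passing lipid from smaller ones, had the smallest adjusted p of all genes. It stood at 10.5, 21.8 and 45.4 CPM (lowest, median and highest mouse) at the low dose and at 0.243, 2.27 and 7.28 CPM at the high dose. Every high-dose mouse lay below every low-dose mouse, and the log2 fold change was -3.08 ± 0.43 (adjusted p = 3.57e-05). Cidec, its relative with the same role in fat storage, had 47.4, 140.0 and 178 CPM at the low dose and 3.89, 32.5 and 78.5 CPM at the high dose. The ranges overlapped only through low-dose mouse 1, the lowest of its group, and the log2 fold change was -1.79 ± 0.42 (adjusted p = 0.014).

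Of the droplet coat genes, Plin4 and Plin2 fell. Plin4 had 14, 37.1 and 54.8 CPM at the low dose and 1.46, 10.7 and 21.2 CPM at the high dose, a log2 fold change of -1.74 ± 0.40 (adjusted p = 0.0106) with overlap. Plin2, the coat protein of nearly all hepatocyte droplets, went from 470.4, 759 and 918 CPM to 339, 407 and 559 CPM (-0.75 ± 0.15, adjusted p = 0.0038). Mogat1, which makes diacylglycerol for triglyceride synthesis, went from 4.99, 7.67 and 10.5 CPM to 1.82, 2.93 and 4.10 CPM without overlap (-1.38 ± 0.27, adjusted p = 0.00257). Against DIO-MASH vehicle, none of these 5 genes had passed at the low dose (log2 fold changes of -0.92 for Cidea, -0.35 for Cidec, -0.46 for Plin4, -0.23 for Plin2 and -0.42 for Mogat1). At the high dose all 5 were lower than vehicle, by -4.00, -2.14, -2.20, -0.98 and -1.80. The members that did not pass included the lipase Pnpla2 (-0.19) and the other coat genes Plin3 (-0.34) and Plin5 (-0.15). Without low-dose mouse 1, the list had 8 lower genes and 1 higher, with Pparg, Cd36 and Fabp4 added below and Dgat2 above. Plin1, the coat protein of adipocytes, had 6 reads in the 16 mice and was not tested.

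**Figure D3:**
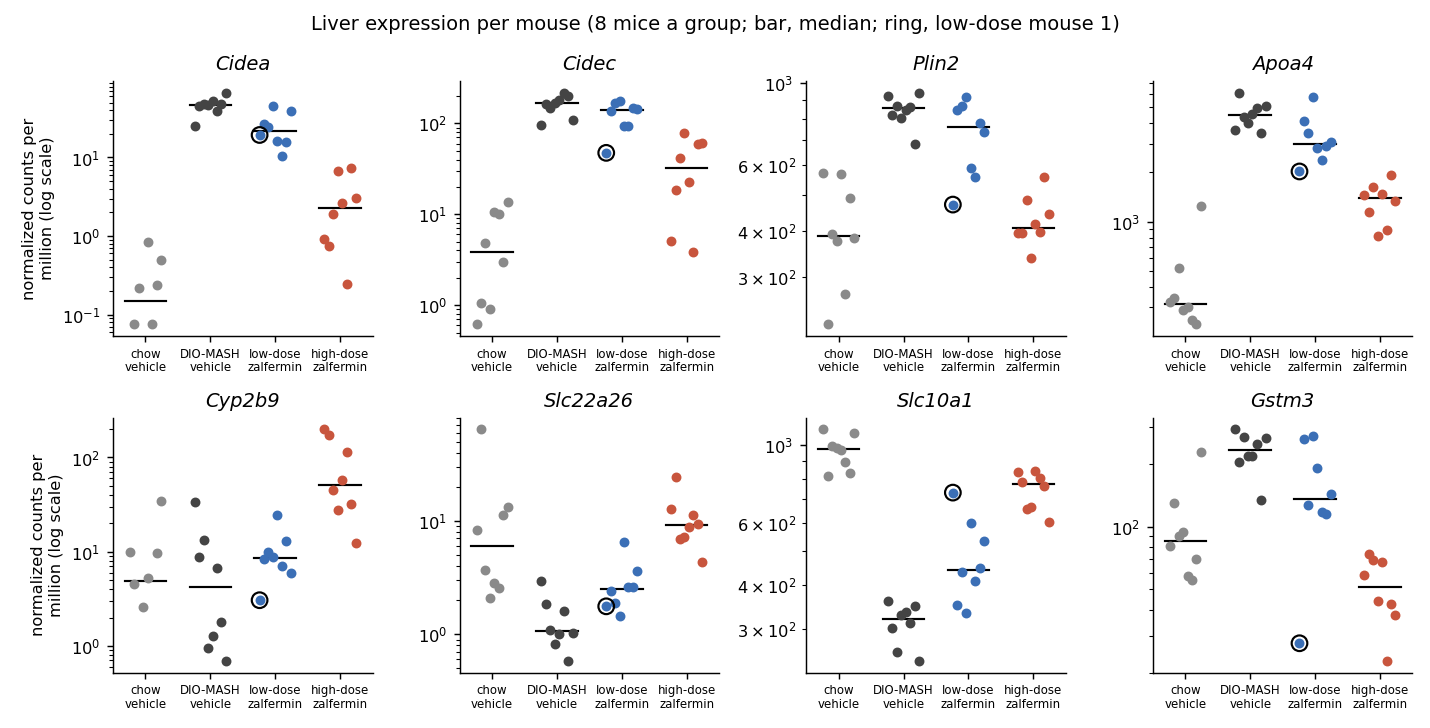
Each point is the level of a gene in 1 mouse (y axis, CPM on a log scale) in the chow vehicle, DIO-MASH vehicle, low-dose and high-dose zalfermin groups (x axis, 8 mice each), bars are medians and the ring marks low-dose mouse 1. Chow mice without a read of Cidea or Cyp2b9 cannot be drawn on the log axis, and the high-dose mice lie below all low-dose mice for Cidea and Apoa4.

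Apolipoprotein and lipoprotein genes had 1 call in each direction. Of 22 genes tested, Apoa4 fell, Apom rose and 20 did not pass, beside 0.447% higher and 1.4% lower of all genes tested. A positive log2 fold change was found in 14 of the 22 and a negative one in 8 (median 0.15). Apoa1 and Lipc were higher as well (0.42 each) without low-dose mouse 1. Apoa4, whose protein enters triglyceride-rich lipoproteins and rises in fatty liver, had 2029, 2986 and 5773 CPM at the low dose and 823, 1399 and 1929.9 CPM at the high dose. The groups did not overlap (-1.31 ± 0.26, adjusted p = 0.00353). Apom, which carries sphingosine-1-phosphate on high-density lipoprotein, went from 88.4, 104 and 149 CPM to 98.7, 154 and 185 CPM (0.55 ± 0.12, adjusted p = 0.00615). Its ranges overlapped through low-dose mouse 1, the highest of its group, and high-dose mouse 4, the lowest of its group.

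Among all DEGs with a mean of 1 CPM or more, the 12 largest falls were of genes with median levels of 0 to 6.06 CPM in chow vehicle mice. Sprr1a, a protein of the cornified layer of skin, had 0.339, 2.17 and 10.4 CPM at the low dose and 0, 0.0736 and 0.302 CPM at the high dose. These levels rest on 266 reads in the 8 low-dose mice and 8 reads in the high-dose mice, 4 of which had none, and the log2 fold change was -4.77 ± 0.80 (adjusted p = 0.00041). Sdcbp2, a membrane scaffold protein with PDZ domains, went from 1.76, 5.45 and 10.7 CPM to 0, 0.246 and 0.936 CPM (-3.78 ± 0.84, adjusted p = 0.00804). Neither gene overlapped between the doses, and both passed in each of the 16 fits with 1 mouse left out. Sprr1a and Sdcbp2 are the 2 largest falls of the dose comparison by the naming rule, and the 250 bases before their RefSeq transcript starts (GRCm38.p6) are shown because they contain the AP-1 element TGACTCA, in capitals here on either strand (TGACTCA or TGAGTCA). The first is chr3:92485882-92486131 on the minus strand and the second chr2:151572373-151572622 on the plus strand.
Sprr1a: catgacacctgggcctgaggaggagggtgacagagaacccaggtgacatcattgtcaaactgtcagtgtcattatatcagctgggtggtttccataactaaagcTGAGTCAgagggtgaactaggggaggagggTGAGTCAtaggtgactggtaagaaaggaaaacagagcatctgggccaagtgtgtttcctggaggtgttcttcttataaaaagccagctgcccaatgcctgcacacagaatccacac
Sdcbp2: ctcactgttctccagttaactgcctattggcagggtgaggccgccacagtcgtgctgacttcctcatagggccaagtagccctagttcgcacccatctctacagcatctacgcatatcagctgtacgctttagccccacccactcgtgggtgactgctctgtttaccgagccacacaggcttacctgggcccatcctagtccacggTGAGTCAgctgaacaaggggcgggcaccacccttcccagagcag

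The Sprr1a window holds 2 copies, beginning 146 and 116 bases before the start, and the Sdcbp2 window holds 1, beginning 44 bases before it. Searched on both strands, TGACTCA occurs in the promoter windows of 5.16% of 27025 genes. It occurs for 11 of the 152 lower DEGs with a window (7.24%) and for 4 of the 45 higher DEGs (8.89%). The nuclear receptor element DR1, searched as 2 copies of AGGTCA in the same direction with 1 base between them, is in 0.0407% of all windows and in 0 of the DEGs, and the STAT element TTCNNNGAA is in 8.13% of all windows, 6.58% of the lower and 6.67% of the higher DEGs. A match describes the sequence only and is not a measure of binding.

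The next largest falls came from surface and signaling genes. Ly6d, a small surface protein of the Ly6 family, had 5.77, 47.7 and 86.3 CPM at the low dose and 3.98, 5.83 and 10.6 CPM at the high dose (-2.97 ± 0.54, adjusted p = 0.00124). Low-dose mouse 1 alone had a level inside the high-dose range. Themis, an adaptor known from T cell development, went from 6.99, 18.6 and 31.3 CPM to 1.82, 2.99 and 5.37 CPM without overlap (-2.44 ± 0.39, adjusted p = 0.000213). Beside it, all 13 tested markers of T and cytotoxic lymphocytes had a positive log2 fold change (median 0.57) and none passed, with summed levels of 9.78 to 30.8 CPM at the low dose and 9.80 to 45.5 CPM at the high dose. Ephb2, a receptor tyrosine kinase for ephrin-B ligands, went from 5.63, 23.6 and 42 CPM to 1.34, 5.31 and 7.63 CPM (-2.35 ± 0.39, adjusted p = 0.00041), with overlap through low-dose mouse 1. Fam83a (-2.14 ± 0.40), the adaptor Shc2 (-2.20 ± 0.48), Insyn1 (-2.00 ± 0.44) and the growth factor Bmp8b (-2.31 ± 0.58) also fell, the last passing in 11 of the 16 fits with 1 mouse left out. Bmp8b was lost without low-dose mouse 2 or 4 or high-dose mouse 2, 6 or 8 (adjusted p of 0.0529 to 0.108). Exons of Themis, Shc2 and Bmp8b, and of Fosl1, Plin4, Mogat1, Apoa4, Fgfr1 and Fgfr3 above and Lox and Mmp12 below, overlap genes on the other strand, and the program that counted the reads and its strand setting are not given in the sources used here.

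The largest rises included cytochrome P450 genes that are higher in female than in male mouse liver. Cyp2b9 had 3.05, 8.57 and 24.6 CPM at the low dose and 12.4, 51 and 199 CPM at the high dose, a log2 fold change of 3.05 ± 0.76 (adjusted p = 0.0207). Cyp2b13 went from 0.339, 1.08 and 1.39 CPM to 0.936, 3.14 and 12.8 CPM (2.34 ± 0.56, adjusted p = 0.0161), and the organic anion transporter gene Slc22a26 from 1.45, 2.51 and 6.57 CPM to 4.33, 9.12 and 24.4 CPM (1.93 ± 0.48, adjusted p = 0.0211). The groups overlapped in all 3 genes. They passed in 13, 15 and 14 of the 16 fits with 1 mouse left out. Cyp2b9 was lost without low-dose mouse 4 or high-dose mouse 1 or 2 (adjusted p of 0.0503 to 0.0539), Cyp2b13 without high-dose mouse 1 (0.0586) and Slc22a26 without low-dose mouse 4 or high-dose mouse 2 (0.0584 and 0.0817). The windows of 250 bases before the RefSeq starts of Cyp2b9 (chr7:26173159-26173408, plus strand) and Cyp2b13 (chr7:26061245-26061494, plus strand) are shown because the genes are near copies. They are identical at 248 of 250 bases and differ by T48C and C104T from Cyp2b9 to Cyp2b13, counted from 1 at the 5′ end, with the differing bases in capitals.
Cyp2b9: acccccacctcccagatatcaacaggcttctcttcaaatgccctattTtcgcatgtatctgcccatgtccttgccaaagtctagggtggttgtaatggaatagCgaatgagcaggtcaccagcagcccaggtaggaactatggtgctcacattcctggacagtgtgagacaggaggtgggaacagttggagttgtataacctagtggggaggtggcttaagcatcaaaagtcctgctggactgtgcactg
Cyp2b13: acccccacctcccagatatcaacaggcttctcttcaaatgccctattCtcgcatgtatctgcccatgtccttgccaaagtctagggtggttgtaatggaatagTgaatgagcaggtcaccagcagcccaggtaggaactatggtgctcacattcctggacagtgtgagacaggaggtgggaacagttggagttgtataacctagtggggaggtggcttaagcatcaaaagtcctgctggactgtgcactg

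Of the 75-base windows of the Cyp2b9 transcript, 5.16% also occur in Cyp2b13, and 16.4% of those of Cyp2b13 occur in other genes. A small part of the reads of either gene could therefore have been counted on the other. Cyp4a12a, a P450 higher in male liver, moved the other way. It had 58.7, 126 and 234 CPM at the low dose and 9.09, 46 and 77.8 CPM at the high dose (-1.52 ± 0.37, adjusted p = 0.0189), and was lost without high-dose mouse 2 or 6 (adjusted p of 0.0503 and 0.0532). It shares 40.8% of its 75-base windows with Cyp4a12b, whose counts fell as well (-1.61 ± 0.41, adjusted p = 0.0274), so both values are uncertain. Of the 21 tested growth hormone targets and sex-biased liver genes, 4 rose (Cyp2b9, Cyp2b13, Slc22a26 and Igfbp2) and 1 fell (Cyp4a12a), with a median of 0.19. The list as a whole was mixed, with 12 positive and 9 negative log2 fold changes. Without low-dose mouse 4 or high-dose mouse 2, only 1 of its genes was higher. Igfbp2, which binds insulin-like growth factors, went from 270, 496 and 610 CPM to 570, 697 and 939 CPM (0.58 ± 0.16, adjusted p = 0.035), and passed in 8 of the 16 fits. It was lost without low-dose mouse 2, 4, 5 or 8 or high-dose mouse 2, 5, 6 or 8 (adjusted p of 0.052 to 0.116). The growth hormone receptor gene Ghr (0.19) and its target Igf1 (0.13) did not pass. Among 18 P450 genes of drug and steroid metabolism, the 3 named were the ones called, and 14 had a positive value (median 0.36). In the fit without low-dose mouse 1, 6 were higher and 2 lower, with Cyp4f14 (0.54), Cyp2c37 (1.26), Cyp2c54 (1.38) and Cyp26a1 (2.07) added above and Cyp3a11 (-0.58) below. Without high-dose mouse 1, 0 were higher, and without high-dose mouse 2 or 6, 0 were lower.

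Receptor genes were among the other large rises. Avpr1a, the vasopressin receptor of hepatocytes, had 3.61, 5.55 and 11.1 CPM at the low dose and 10.8, 14.7 and 20.9 CPM at the high dose (1.34 ± 0.28, adjusted p = 0.00511). Lepr, the leptin receptor, went from 11.1, 25.5 and 44.6 CPM to 41.3, 66.0 and 97.1 CPM (1.28 ± 0.32, adjusted p = 0.0207), and was lost without low-dose mouse 4 or high-dose mouse 8 (adjusted p of 0.0585 and 0.0501). Rdh16f2, of a family of retinol dehydrogenases, went from 37.5, 48.6 and 78.1 CPM to 58.2, 128 and 176 CPM (1.26 ± 0.26, adjusted p = 0.00444). In each of these 3 genes 1 or more mice overlapped between the groups. Adgrf1, an adhesion G protein-coupled receptor (1.36), Klf1 (0.91) and Epop (0.86) also rose, but passed in only 7, 7 and 6 of the 16 fits, with adjusted p-values up to 0.107, 0.133 and 0.138. Adgrf1 was also lost with only the zalfermin groups fitted (0.0839), and Klf1 and Epop without the filter on low counts (0.0541 and 0.0549).

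The values of 2 further rises rested on few mice or reads. Lars2, the mitochondrial leucyl-tRNA synthetase, had 375, 518 and 669 CPM at the low dose and 536, 765 and 7890.5 CPM at the high dose, a log2 fold change of 1.62 ± 0.36 (adjusted p = 0.00874). High-dose mouse 4 alone gave the top value, and the other 55 mice of the series lay between 375 and 2161 CPM. Without that mouse the log2 fold change was 0.44 (adjusted p = 0.384). The adjusted p ran from 0.00623 to 0.384 over the fits with 1 mouse left out, and DESeq2's Wald test gave 0.42 (adjusted p = 0.362). Fmr1nb, on the X chromosome, had reads in 4 of the 8 low-dose mice (12 in all) and in 6 of the 8 high-dose mice (190 in all), with a log2 fold change of 4.04 ± 1.07 (adjusted p = 0.0323). It passed in 7 of the 16 fits, with an adjusted p of up to 0.0813.

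Transporters of bile acids changed in both directions. Among 23 tested genes of bile acid synthesis and transport, 2 rose, 2 fell and 19 did not pass (median 0.09), and all 4 were carriers. Slc10a1, the sodium-dependent uptake carrier of the hepatocyte's blood side, had 334, 442 and 732 CPM at the low dose and 603, 776 and 842 CPM at the high dose (0.63 ± 0.14, adjusted p = 0.00615). Low-dose mouse 1 was the highest of its group. Slco1a4, an organic anion uptake carrier, went from 42.8, 54.1 and 71.2 CPM to 73.4, 88.1 and 160 CPM without overlap (0.83 ± 0.22, adjusted p = 0.0307), and passed in 11 of the 16 fits. It was lost without low-dose mouse 3, 4 or 8 or high-dose mouse 2 or 4 (adjusted p of 0.0592 to 0.102).

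The carriers that fell were exporters. Abcc3, which exports bile acid and drug conjugates back to blood, had 362, 435 and 475 CPM at the low dose and 219, 291 and 338 CPM at the high dose (-0.59 ± 0.14, adjusted p = 0.0166), and was lost without low-dose mouse 4 or high-dose mouse 6 (adjusted p of 0.0504 and 0.0528). Abcb4, which moves phospholipid into bile, went from 427, 454 and 498 CPM to 311, 352 and 397 CPM (-0.40 ± 0.09, adjusted p = 0.00804). Neither overlapped between the groups. Cyp7a1, the rate-limiting enzyme of bile acid synthesis, had a log2 fold change of 1.02 that did not pass (adjusted p = 0.135), and the bile salt export pump gene Abcb11 one of -0.05. Without low-dose mouse 1, 4 genes of the list were higher, Cyp7a1 (1.32) and Slc27a5 included. Without low-dose mouse 4, 1 was higher and 1 lower, the fewest of the fits with 1 mouse left out.

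Genes of amino acid breakdown leaned higher with few calls. Of the 25 genes of amino acid catabolism and the urea cycle, 24 had a positive log2 fold change (median 0.39), but 1 passed. It was Asl, the urea cycle enzyme that releases arginine, with 367, 471 and 640.0 CPM at the low dose and 543, 737 and 829 CPM at the high dose (0.60 ± 0.15, adjusted p = 0.0195). It was lost without low-dose mouse 4 or 5 (adjusted p of 0.0554 and 0.0529). Without low-dose mouse 1, 6 of them were higher, Arg1 and Cps1 among them, whereas without low-dose mouse 4 or 5 none was. Of the 9 hepatocyte markers, 8 had a positive value and none passed (median 0.35). Cps1 (0.72) and Serpina1c (0.81) were higher and Cyp3a11 lower (-0.58) without low-dose mouse 1. Their summed level was 69412 to 101120 CPM at the low dose and 80226 to 129669 CPM at the high dose. The part of these markers in the amino acid values was not tested.

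Antioxidant genes leaned lower. All 17 tested targets of NRF2, the transcription factor of the antioxidant response, had a negative log2 fold change (median -0.41), and 3 passed. Gstm3, a glutathione transferase, had 27.6, 135 and 272 CPM at the low dose and 22.7, 51.3 and 74.2 CPM at the high dose (-1.59 ± 0.34, adjusted p = 0.00594). Low-dose mouse 1, at the low end, overlapped with the high-dose group, and 21.6% of the transcript's 75-base windows also occur in other genes. Ephx1, an epoxide hydrolase, went from 444, 525 and 642 CPM to 253, 336 and 475 CPM (-0.64 ± 0.14, adjusted p = 0.00593). Srxn1, which repairs oxidized peroxiredoxins, fell by 0.66 on the log2 scale (SE 0.17, adjusted p = 0.022), and was lost without low-dose mouse 4 or high-dose mouse 2 or 8 (adjusted p of 0.0511 to 0.107). The list held 6 lower genes without low-dose mouse 1 and 2 without low-dose mouse 4, high-dose mouse 2 or high-dose mouse 8.

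Collagen and matrix genes leaned lower, and the calls of Lox, Timp1 and Col1a1 were lost in most fits with 1 mouse left out. Of the 32 tested genes, 30 had a negative log2 fold change (median -0.65), and 5 fell, namely Col1a1, Col3a1, Col12a1, Lox and Timp1. Col3a1, a fibrillar collagen of scar tissue, had 82.5, 216 and 331 CPM at the low dose and 53.1, 90.6 and 103 CPM at the high dose (-1.29 ± 0.31, adjusted p = 0.0161). Col1a1, the main collagen of scar tissue, went from 46.6, 152 and 234 CPM to 19.6, 67.8 and 82.1 CPM (-1.32 ± 0.37, adjusted p = 0.0483). The groups overlapped in both genes. Col12a1, a collagen that decorates fibrils, fell by 1.26 on the log2 scale (SE 0.26, adjusted p = 0.00511), Lox, which cross-links collagen, by 1.59 (SE 0.43, adjusted p = 0.035) and Timp1, an inhibitor of matrix proteases, by 1.35 (SE 0.36, adjusted p = 0.0356). Of the 16 fits with 1 mouse left out, Col12a1 passed in 16, Col3a1 in 15, Lox in 7, Timp1 in 6 and Col1a1 in 1. Col3a1 was lost without low-dose mouse 2 (adjusted p = 0.0506), and the highest adjusted p-values were 0.096 for Lox, 0.136 for Timp1 and 0.121 for Col1a1, which passed only without low-dose mouse 1. Col1a1 was also lost without the filter on low counts (adjusted p = 0.0564), and Timp1 with only the zalfermin groups fitted (0.0509). The list had 13 lower genes without low-dose mouse 1 (median -0.75) and 1 without low-dose mouse 2.

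Markers of the matrix-producing and inflammatory cells are given beside these values. Of the 11 stellate cell markers, 10 had a negative log2 fold change (median -0.34) and none passed, with summed levels of 572 to 905 CPM at the low dose and 428 to 766 CPM at the high dose. Of the 14 tested markers of monocytes and lipid-associated macrophages, 12 were negative (median -0.52) and none passed, with summed levels of 204 to 706 CPM and 121 to 514 CPM. Mmp12, a protease of macrophages, had the smallest p of them (-1.16, adjusted p = 0.0809). It passed without low-dose mouse 1 (-1.23, adjusted p = 0.0461) and without low-dose semaglutide mouse 6 (adjusted p = 0.0364), and its adjusted p reached 0.228 without low-dose mouse 4. Kupffer cell markers had a median of -0.14 (4 of 10 positive), those of the sinusoidal endothelium -0.04 and those of cholangiocytes -0.02, without a call. Krt23, of the cholangiocyte markers, was lower without low-dose mouse 1 (-1.02, adjusted p = 0.0459). The part of these cell markers in the matrix values was not tested.

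Other lists had few or no DEGs. Of the 21 cell cycle genes all had a negative value (median -0.57), and Mcm2, of the replicative helicase, fell (-0.81, adjusted p = 0.0356, in 5 of the 16 fits, up to 0.0987). Of the 22 genes of fatty acid oxidation, Pdk4, which holds back glucose oxidation, fell (-1.17, adjusted p = 0.0399, in 5 of the 16 fits, up to 0.169), and the median was -0.10. None passed among the 20 genes of de novo lipogenesis (median 0.02), the 21 of cholesterol synthesis and uptake (0.17), the 19 of glucose and glycogen metabolism (0.18), the 19 clock genes (0.22), the 20 acute phase genes (0.09), the 20 ATF4 targets of the integrated stress response (-0.05), the 20 chaperones of the endoplasmic reticulum (-0.03), the 18 interferon-stimulated genes (-0.06) and the 7 MHC class II genes (-0.21). The smallest p-value among the genes of de novo lipogenesis was that of Lpin1, a phosphatidate phosphatase (0.74, adjusted p = 0.225). Without low-dose mouse 1, Lpin1 (1.01, adjusted p = 0.0411) and the acute phase gene Hamp (1.62, adjusted p = 0.0371) were higher and the cell cycle gene Mcm6 lower (adjusted p = 0.0248). B and plasma cell markers had a median of 0.81 without a call, and Mzb1, the leading one (1.94, adjusted p = 0.283), had -0.06 without high-dose mouse 6 and shares 51.4% of its 75-base windows with an overlapping gene.

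**Figure D4:**
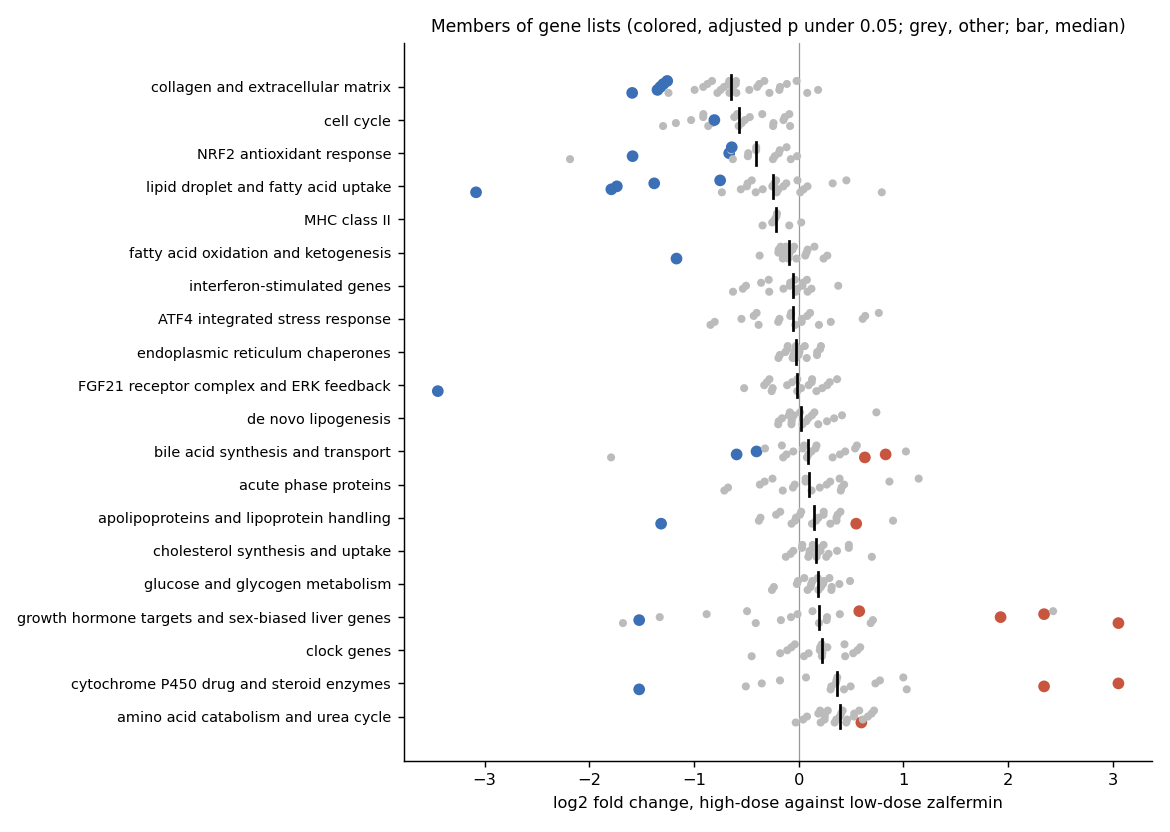
Each point is the log2 fold change of a gene between high-dose and low-dose zalfermin (x axis) in the list named at the left, colored if the adjusted p was under 0.05 (blue lower, red higher), and bars are medians. The medians run from -0.65 for collagen and extracellular matrix genes to 0.39 for amino acid catabolism and the urea cycle.

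Some genes already differed from DIO-MASH vehicle at the low dose. Low-dose zalfermin changed 66 genes against vehicle (0.468% of those tested), 59 higher (0.418%) and 7 lower (0.0496%), and high-dose zalfermin 2429 (17.2%). The low-dose count rested on low-dose mouse 1, since 6 genes were called without it and 31 to 95 without any other low-dose mouse. Without it, Cyp17a1 (1.82, adjusted p = 0.0296) and Unc119 (-0.78, adjusted p = 0.0368) passed against vehicle, whereas Oat (0.87, adjusted p = 0.101), Got1 (0.90, adjusted p = 0.142) and Ctps (-0.86, adjusted p = 0.0769) did not. Oat, which converts ornithine in the mitochondria, rose by 1.0 on the log2 scale at the low dose (adjusted p = 0.0157) and by 1.2 at the high dose, and the difference between the doses was 0.20 ± 0.21 (adjusted p = 0.743). Cyp17a1, an enzyme of steroid synthesis, had 7.11 to 27 CPM on vehicle, 33.2 to 75.2 CPM at the low dose and 50.1 to 147 CPM at the high dose. It was 1.80 above vehicle at the low dose (adjusted p = 0.0117) and 2.58 at the high dose, with a dose difference of 0.78 ± 0.35 that did not pass (adjusted p = 0.289).

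Got1, the cytosolic aspartate aminotransferase, was 1.01 above vehicle at the low dose (adjusted p = 0.0246) and 1.73 at the high dose, and the dose difference was 0.72 ± 0.23 (adjusted p = 0.097). That difference passed without low-dose mouse 1 (adjusted p = 0.0335) and with only the zalfermin groups fitted (0.0228), and its adjusted p reached 0.213 without high-dose mouse 1. Ctps, which makes CTP, was lower than vehicle at both doses (-0.91 and -1.51), with a dose difference of -0.61 (adjusted p = 0.102). Unc119, a lipid-binding chaperone of acylated proteins, was lower than vehicle at the low dose (-0.87, adjusted p = 0.00715) and fell further with dose (-0.71 ± 0.17, adjusted p = 0.0169), the latter lost without high-dose mouse 6 (adjusted p = 0.0528). Cyp26a1, which degrades retinoic acid, had 3.24, 5.76 and 72.9 CPM at the low dose and 9.92, 20.4 and 53.8 CPM at the high dose. The value of 72.9 CPM was low-dose mouse 1. With it the log2 fold change was 0.73 ± 0.49 (adjusted p = 0.559), and without it 2.07 (adjusted p = 0.00399), the lowest of the fits with 1 mouse left out, which reached 0.78.

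The dose effect was set beside the effect of diet in mice of other groups. The chow vehicle and DIO-MASH vehicle groups share no mouse with the zalfermin groups. Of the 63 genes higher at the high dose, 59 (93.7%) were higher in chow vehicle than in DIO-MASH vehicle mice, and 55 of them (87.3%) passed the test there, against 26.5% of all genes tested. Of the 197 genes lower at the high dose, 189 (95.9%) were lower in chow vehicle mice, and 163 (82.7%) passed, against 28.9% of all genes. Cidea, for instance, had a median of 0.147 CPM on chow and 47.2 CPM on DIO-MASH vehicle, with 21.8 and 2.27 CPM at the low and high doses between them. For Plin2 the median of 407 CPM at the high dose lay near that of 388 CPM on chow.

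DEGs that moved away from the chow level were few. Lepr rose with dose and was lower on chow than on DIO-MASH vehicle (-1.45, adjusted p = 0.000704). Its median level was 3.27 CPM on chow, 14.3 CPM on vehicle, 25.5 CPM at the low dose and 66.0 CPM at the high dose. Cyp2b13 was likewise lower on chow (-2.12, adjusted p = 0.027), and Cyp2b9 had a diet difference of -0.07 (adjusted p = 0.943), while Clec3b, an extracellular lectin-like protein, had -0.96. Among the 8 genes that fell with dose and were higher on chow, only Aldh1a7 passed the diet test (0.29, adjusted p = 0.0493), and Ephx1 and Abcc3 were named above. The 17 NRF2 targets, mostly not DEGs, did not move toward chow as a list. Their median log2 fold change against DIO-MASH vehicle was 0.07 on chow and -0.41 at the high dose. Their median summed level was 3734 CPM on vehicle, 3742 CPM on chow, 3620 CPM at the low dose and 2619 CPM at the high dose.

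**Figure D5:**
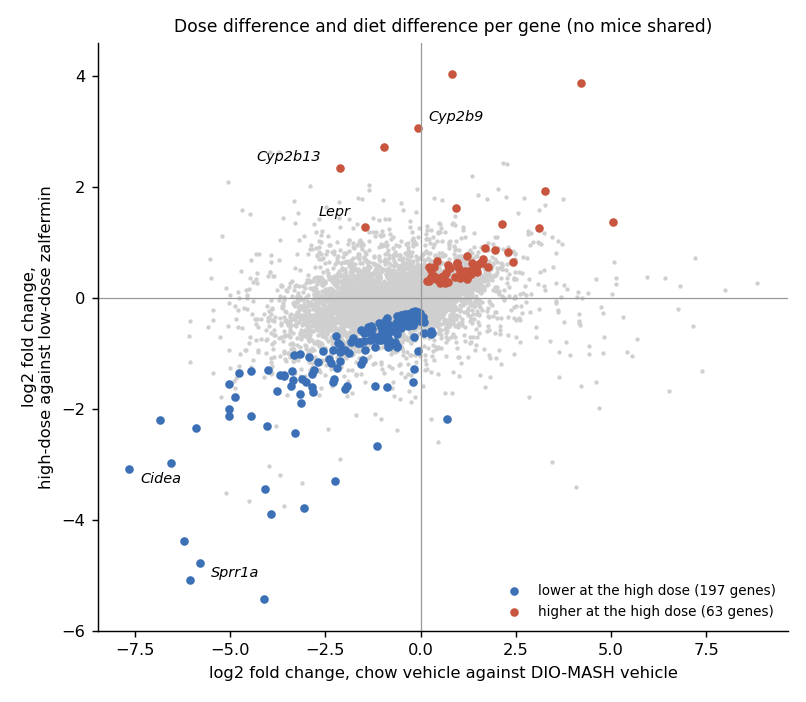
Each point is a gene, with its log2 fold change between chow vehicle and DIO-MASH vehicle on the x axis and between high-dose and low-dose zalfermin on the y axis, and colors mark the 63 DEGs higher and the 197 lower at the high dose. Most red points lie at the right and most blue points at the left, and Lepr, Cyp2b13 and Cyp2b9 are named red points that do not lie at the right.

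Semaglutide, an agonist of the GLP-1 receptor, was also given at 2 doses, which differed 40-fold, and its mice were not those of the zalfermin groups. Between its doses, 0 genes (0%) passed edgeR's test or DESeq2's Wald test. At an unadjusted p under 0.05 edgeR gave 549 of the 14105 genes, a smaller share than the 0.05 that chance alone gives. Of the zalfermin DEGs, 88.9% of the 63 higher and 89.8% of the 197 lower genes had the same sign between the semaglutide doses, against 48% and 52% of all genes with a positive or negative sign. Their medians there were 0.15 and -0.17. The difference between the dose effects of zalfermin and semaglutide was tested directly, and 0 genes passed by edgeR or DESeq2. At an unadjusted p under 0.05 edgeR gave 525 of the 14105 genes, again a smaller share than chance alone gives. The dose effect of zalfermin is therefore not shown to differ from that of semaglutide in any single gene, and the doses of the 2 compounds were not matched. Low-dose semaglutide mouse 6 is left out in a further fit, because the study excluded a mouse of that group. The study does not say which, so mouse 6 may not be the mouse it excluded. Mouse 6 had the fewest genes with a read in its group (13720). Without mouse 6, 2 genes, Cnmd (1.66) and Slc29a1 (0.52), passed between the semaglutide doses, and 337 between the zalfermin doses.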

How the data were processed

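RNA of terminal liver samples was sequenced by the authors with a stranded mRNA kit and deposited as a table of raw counts of reads per gene (21935 genes, 56 mice), without normalization. Per the study's methods, STAR was the aligner and GRCm38 with Ensembl genes the reference, whereas the submitters' processing notes name Trim Galore 0.6.4 and Salmon 1.9.0. The counting program and its use of strand are not given in the sources used here. Total counts ran from 5228187 to 20885786 per mouse, and genes near 1 CPM rest on few reads. Samples were grouped by their treatment labels, and no mouse was left out, because the excluded low-dose semaglutide mouse is not marked in the table.

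A gene was kept if at least 3 mice had at least 5 reads of it (14105 genes). All 7 groups were fitted together with edgeR 4.0.16 in R 4.3.3 (TMM, two-sided quasi-likelihood F tests, Benjamini-Hochberg adjustment over the 14105 genes, threshold 0.05), so that the groups shared 1 estimate of the spread. The labels do not state litters or cages, and the p-values cover the spread between these mice. Per the study's methods, mice were housed singly once they had been biopsied. The AMLN mice were randomized to treatment, stratified by baseline Col1a1 staining and body weight. Columns of the same group were compared for copies, and the most alike had 9.53 times the chi-square that sampling noise alone gives. The combination group entered the fit and was otherwise not used. The genes named were the 12 largest rises and 12 largest falls among DEGs with a mean of 1 CPM or more, up to 5 DEGs of each list or else its smallest p, the FGF receptors, and genes of an earlier analysis. A gene that this rule names is not reported here. Members and lists were chosen with earlier results of these data known. Gene positions are from GENCODE and promoter windows from RefSeq (GRCm38.p6). Tested on simulated counts for the zalfermin dose comparison with 200 of 13980 genes changed 2-fold, the fit recovered 85.5% of them, with 7.57% false calls. Alternatives were DESeq2 1.42.0 (Wald test, size factors), other count filters, the runs of sample numbers as a covariate, only the groups compared, and single mice left out.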

Additional observations from a re-analysis of the deposited data

Results flagged for a closer look

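In each group of 8 mice, the gap of the highest or lowest mouse to the next was divided by the range of the group on the log2 scale, and ratios above Dixon's 95% critical value for a group of that size are listed. Of 156 groups tested, from 76 named genes and the total reads and genes detected at both doses, 25 passed, and chance passes about 1 in 20 groups. In 15 of the 25, the mouse was low-dose mouse 1. It was the lowest of its group for Cyp3a11 (ratio 0.693), Insyn1 (0.658), Fam83a (0.651), Gstm3 (0.624), Shc2 (0.622), Ly6d (0.62), Unc119 (0.583), Col1a1 (0.57), Col12a1 (0.549), Ephb2 (0.543), H2-DMb1 (0.535) and Mcm2 (0.528), and the highest for Cyp26a1 (0.644), Apom (0.643) and Edem1 (0.539). Cyp26a1 had 72.9 CPM in this mouse and at most 9.98 CPM in the other 7.

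High-dose mouse 6 was the lowest of its group for Col1a1 (0.73), Mmp12 (0.667), Cyp3a11 (0.633), Shc2 (0.62) and Col3a1 (0.616). High-dose mouse 4 was the highest for Lars2 (0.838, 7890.5 CPM against 828 CPM in the next mouse) and the lowest for Apom (0.618). High-dose mouse 3 was the lowest for Rgs5, a pericyte gene (0.792), and the highest for Fosl1 (1), where it alone had a read. High-dose mouse 7 was the lowest for Adgrf1 (0.565). The causes were not tested.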

How the results depend on the processing

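The 260 DEGs became 368 with DESeq2's Wald test, 249 with DESeq2's size factors, 223 without the filter on low counts, 285 with the stricter filter, 308 with the runs of sample numbers as a covariate, 380 with only the groups compared and 337 without low-dose semaglutide mouse 6. The higher genes moved from 63 to 97 with DESeq2's test and to 119 with only the groups compared. With 1 zalfermin mouse left out, the count ran from 109 to 495, with 17 to 172 higher and 92 to 323 lower. Between the semaglutide doses 0 genes became 2, both higher, without low-dose semaglutide mouse 6, and the difference of both dose effects went from 0 to 1 gene, lower (Pnldc1), with only the groups compared. Of 531 values of named genes in fits other than those with 1 mouse left out, 517 kept their direction and side of the threshold, 9 lost a call, 4 gained one and 1 turned. Of 228 values within single runs of sample numbers, 46 moved by more than the spread between mice, and 7, none of them of a DEG, had the other sign (Cyp17a1, Oat, Mzb1, Lpin1, Fgfr1, Fgfr2 and Fgfr3). Fgfr1 turned to 0.0444 with the runs of sample numbers as a covariate, and with 1 mouse left out ran from -0.111 to 0.086, Fgfr2 from -0.0258 to 0.0917 and Mzb1 from -0.0604 to 2.89. Calls were lost for Lars2 (DESeq2, only the groups compared), Klf1, Epop and Col1a1 (no filter), Epop and Col1a1 (number runs), and Adgrf1 and Timp1 (only the groups compared), and gained for Got1, Saa3 and Usp18 (only the groups compared) and Mmp12 (without low-dose semaglutide mouse 6). The causes were not tested. Depth limits genes with few reads, such as Fosl1 (24 reads at the low dose and 1 at the high dose). No paired analysis was possible because the labels carry a running sample number and no replicate number shared between groups, and nothing states that neighboring sample numbers mark a pair.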

Other observations

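Several DEGs with small adjusted p-values lay outside the lists and the naming rule, and were chosen after their values were seen. Gnai1, an inhibitory G protein subunit, had 13.4, 17.4 and 26.8 CPM (lowest, median and highest mouse) at the low dose and 3.40, 6.12 and 9.57 CPM at the high dose, without overlap (-1.52 ± 0.23, adjusted p = 0.000161 by edgeR). Lgals1, galectin-1, went from 48.8, 111 and 122 CPM to 22.2, 47 and 57.4 CPM (-1.14 ± 0.20, adjusted p = 0.000817). Psmd8, a subunit of the proteasome cap, had a smaller fall, from 152, 191 and 237 CPM to 123, 140.0 and 157 CPM (-0.45 ± 0.08, adjusted p = 0.000817). The phospholipase gene Pla2g6 fell without overlap (-0.79 ± 0.14, adjusted p = 0.00124). All 4 stayed DEGs in each of the 16 fits with 1 mouse left out.

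Among the rises, Slc29a1, a nucleoside transporter, had the smallest adjusted p. It had 148, 172 and 217 CPM at the low dose and 223, 260 and 274 CPM at the high dose, without overlap (0.54 ± 0.10, adjusted p = 0.00165). It is also 1 of the 2 genes that passed between the semaglutide doses when low-dose semaglutide mouse 6 was left out. Cyp39a1, which hydroxylates an oxysterol on a side path of bile acid synthesis, went from 23.5, 27.4 and 36.8 CPM to 26.8, 45.5 and 59.8 CPM (0.71 ± 0.14, adjusted p = 0.00366).

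Markers of cells that whole liver can carry over are given as values. All 5 tested neutrophil markers (median -0.30) and all 5 red blood cell genes (median -0.63) had negative log2 fold changes without a call. Of 12 genes of pancreas, fat and gut, 5 could be tested, and Sprr1a and Ly6d fell. Clec7a, Trbc2 and Ighm were not among the genes analysed here.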
